A study of Mus musculus with 6 samples.

Results

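Voltage-gated ion channel and potassium channel genes were described in brain microglia of mice with and without the enzymatic activity of LACTB, a mitochondrial serine beta-lactamase-like protein. Membership is set by a rule on gene names, in which no value enters. They are the sodium channel genes (Scn, a number and the letter a or b), the potassium channel genes (Kcn), the calcium channel genes of the Cacna, Cacnb and Cacng series, and the pacemaker channel genes (Hcn), with Kcnj13 left out. This rule took 100 of the 15954 genes of the deposited table. GENCODE M21 holds 141 names of this form, and 41 of them, such as Hcn4, Kcnk5, Kcnk9, Kcnq1 and Scn4a, had no row in the table, in which no gene had a mean value under 9.87. These 41 were not analysed here.

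Polyadenylated RNA of isolated microglia was sequenced from 3 LACTB WT and 3 LACTB ED mice, 1 library per mouse, at 3 months of age. The ED (enzymatically dead) mice are homozygous for a knock-in in Lactb, made in C57BL/6J embryonic stem cells, that replaces the catalytic serine of the enzyme with isoleucine. The study used these mice to look at inactive LACTB in liver, brain tissue and isolated astrocytes as well as microglia, so an effect that arises outside microglia cannot be told apart from one within them. The WT mice are described as controls, and the sources used here state neither their relation to the ED litters nor the sex of the mice. Cells were collected from dissociated brain with magnetic beads against CD11b, a surface protein of microglia and of other myeloid cells. The study compared the 2 genotypes to see what loss of LACTB activity does to microglia in the living brain.

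Reads in the listed genes ranged from 23394686 to 28122336 per library. The labelled cell type was borne out by its markers, since the 12 microglia marker genes had means of 14540 to 290500 normalized reads. Markers of other cells were also present. All 20 listed neuron markers were measured, and their summed value ranged from 7674 to 8195 over WT mice and from 5390 to 7044 over ED mice, with single-gene means of 39.5 to 1455 led by Camk2a, Snap25 and Nefm. In such bulk libraries fewer cells of a type and less RNA per cell cannot be told apart. Astrocyte markers summed to 8791 to 10628 in WT and 9291 to 10254 in ED, oligodendrocyte markers to 12292 to 16136 and 12089 to 14072, and precursor markers to 687 to 913 and 684 to 831. Border macrophage markers summed to 10520 to 12981 in WT and 11475 to 14229 in ED. Monocyte and neutrophil markers summed to 741 to 2316 and 672 to 3504. The part of these other myeloid cells in the channel levels was not tested.

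A voltage-gated channel opens when the membrane depolarises. Sodium channels carry the upstroke of the action potential, calcium channels couple it to transmitter release and gene transcription, and voltage-gated potassium channels end it. Their alpha subunits form the pore, and auxiliary subunits (beta, alpha2delta, gamma, Kcnab, Kcne, Kcnip) set traffic and gating. Microglia do not fire action potentials. They are known for a small set of potassium channels instead: the two-pore channel Kcnk13, which sets their resting potential and supports surveillance by their processes, Kcnk6, which carries the potassium efflux that precedes inflammasome activation in macrophages, the inward rectifier Kcnj2, and Kcna3 and the calcium-activated Kcnn4, both linked to microglial activation. These 5 were taken as the microglial channels. A list of 46 genes known chiefly from neurons, of which 40 were measured, formed the neuronal channels, 6 of 7 listed genes of other glia, vessels and choroid plexus formed a further list, and 49 members were in no list.

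What the potassium channels of both lists share is the selectivity filter, the narrow part of the pore that lets potassium pass. The pattern searched for was threonine, any residue, glycine, then tyrosine, phenylalanine or leucine, then glycine. Its codons were found in the GENCODE M21 coding sequence of 44 of 52 pore-forming potassium channel members. These included 25 of 30 voltage-gated alpha subunits and 3 of 6 calcium- or sodium-activated channels. A filter with another residue at a fixed place would be missed, so the lack of a match does not mean the lack of a filter. All 6 two-pore channels matched the pattern at 2 places, which no other member did. The stretches of the microglial channels and of the neuronal channel Kcnj3, which is described further on, are shown 5′ to 3′ on the coding strand, and the capitals mark the last 3 codons of the filter.
Kcnk6 loop 1: cttgtcaccaccgtgGGCTATGGC
Kcnk6 loop 2: tctctgtccaccattGGCCTAGGG
Kcnk13 loop 1: gtggtttctaccataGGGTTTGGG
Kcnk13 loop 2: gctttcagcaccattGGCTTCGGG
Kcnj2: acccagacaaccattGGCTATGGT
Kcna3: accatgacaactgttGGTTATGGT
Kcnn4: acattcctgaccattGGCTATGGG
Kcnj3: accgaggccaccatcGGCTATGGC
Kcnk6 carries codons for glycine, tyrosine and glycine in its first loop and for glycine, leucine and glycine in its second, whereas both loops of Kcnk13 carry phenylalanine in the middle. The other channels shown here have tyrosine.

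These stretches are exonic and their positions are those of GRCm38. Kcnk6 loop 1 lies at chr7:29225860-29232177 on the minus strand, where it is split between exons 1 and 2, and loop 2 at chr7:29225536-29225559 in exon 2. Kcnk13 loop 1 is split between exons 2 and 3 at chr12:99966265-100061009 on the plus strand, and its loop 2 is in exon 3 at chr12:100061367-100061390. The stretch of Kcnj2 is in exon 2 at chr11:111072198-111072221, that of Kcna3 in exon 1 at chr3:107037602-107037625 and that of Kcnn4 in exon 4 at chr7:24379189-24379212, each on the plus strand. Kcnj3 has its stretch in exon 1 at chr2:55437618-55437641 on the plus strand.

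Channel genes spanned a wide range of levels, and the most abundant were not neuronal. Per kb of exon, Kcnk6 ranked first of the 100 members, with 2276 normalized reads per kb in WT and 2264 in ED. Kcnk13 had 699 and 675 per kb, and Kcnd1, the pore of a fast inactivating (A-type) potassium channel, had 521 and 511 per kb. Kcnk12, the closest relative of Kcnk13, had a mean of 478 per kb, Kcnj2 293 and Kcnip3 239. Together Kcnk6 and Kcnk13 made up 29.0% and 8.91% of the summed level per kb of all members in WT, and 29.3% and 8.76% in ED. Among neuronal channels the highest mean before length scaling was 444.7 normalized reads, that of the calcium channel gene Cacna1a.

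**Figure D1:**
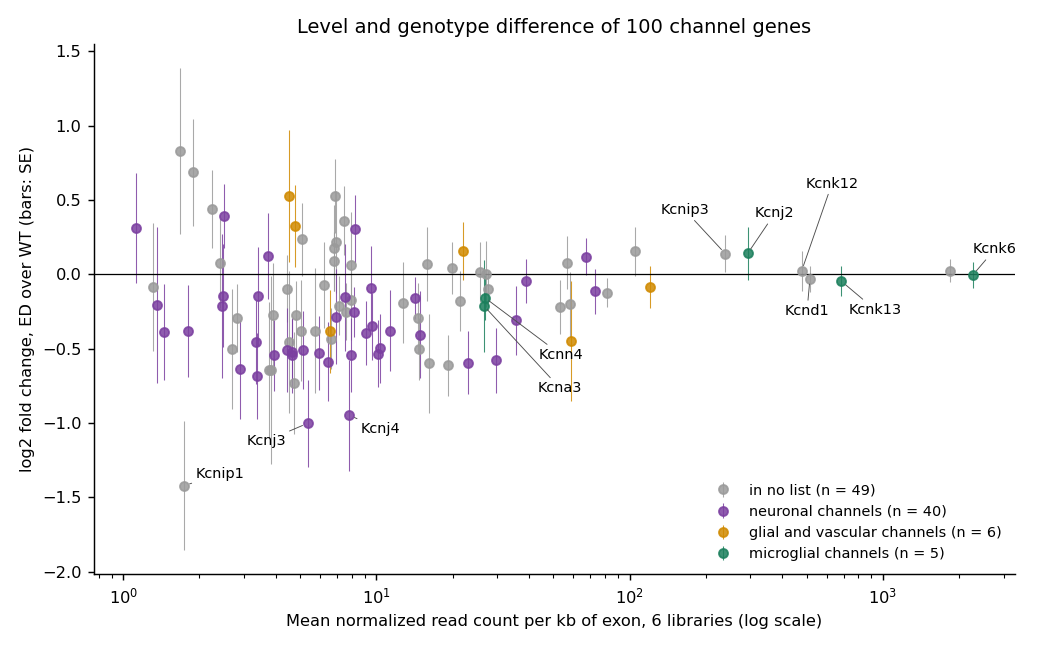
Each point is 1 of 100 channel genes, with its mean normalized read count per kb of exon over 6 libraries on a log scale and its log2 fold change, ED over WT, with bars of 1 SE from limma. The genes at the highest levels, from Kcnk6 at 2270 per kb down to Kcnip3 at 239 per kb, lie near 0, and the largest negative values (Kcnip1 -1.42, Kcnj3 -1.003) are at low levels.

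Of the 5 microglial channels, 4 had a lower mean in ED, against 51.4% of all genes. Here and in later counts of genes, a lower or higher mean is that of log2(value + 1). Kcnk6 and Kcnk13 had near-equal levels in the 2 genotypes. Kcnk6 was at 9674, 10137 and 8528 normalized reads in WT mice 1 to 3 and at 9029, 9459.9 and 9699.9 in ED mice 1 to 3. The ranges overlapped, and ED differed from WT by -0.0045 on the log2 scale (SE 0.09, 95% interval from -0.21 to 0.20, limma adjusted p = 1.00). Kcnk13 was at 2204, 2391 and 1929 in WT and 2204, 2192 and 1907 in ED. Its ranges overlapped as well, with a log2 fold change of -0.05 (SE 0.10) and an interval from -0.27 to 0.18.

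Kcnj2 was at 1774, 1069 and 1763 in WT and 1634, 1514 and 1808 in ED, so that 1 WT library stood below the other 5. Its log2 fold change was 0.14 (SE 0.18), and -0.10 without that library, WT mouse 2. Kcnn4 was at 137, 159 and 138 in WT and 122, 124 and 142 in ED (log2 fold change of -0.16 with SE 0.15). Kcna3 was at 63.5, 32.3 and 70.1 in WT and 45.0, 38.1 and 53.8 in ED (log2 fold change of -0.21 with SE 0.31), again with overlapping ranges. The intervals were wider here, from -0.49 to 0.18 for Kcnn4 and from -0.91 to 0.49 for Kcna3. None of the 5 microglial channels reached an unadjusted p under 0.05, and their median log2 fold change was -0.05, beside -0.0033 over all genes.

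**Figure D2:**
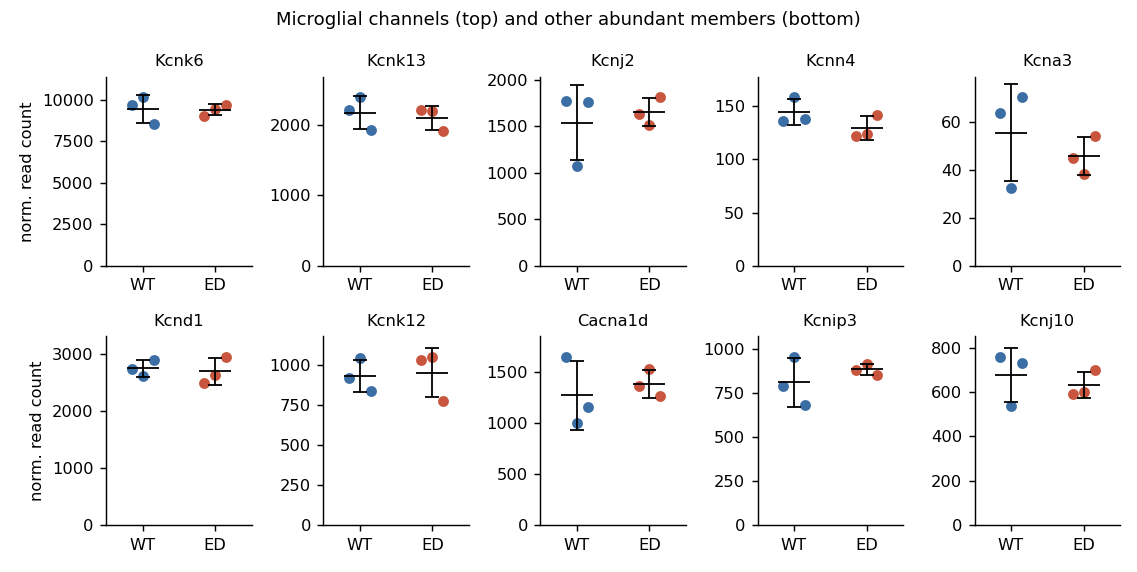
Normalized read counts in each of the 6 libraries for channel genes at high levels, with a point per mouse, a bar at the mean with its SD, and each vertical axis starting at 0. For Kcnk6 the WT points lie between 8528 and 10137 and the ED points between 9029 and 9699.9, and the 2 genotypes overlap in the same way for Kcnk13.

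Across all members, 0 of 100 passed the limma test after Benjamini-Hochberg adjustment, as did 0 of all 15954 genes (0%). At an unadjusted p under 0.05, 11 members were lower in ED and 0 were higher, where the background over all genes was 1.22% lower and 0.602% higher. All 3 ED libraries lay below all 3 WT libraries for 20 members, against a background of 3.42%, and above them for 3 members, against 2.32%. The ED mean was below the WT mean for 72 members, against 51.4% of all genes, and the median log2 fold change of members was -0.20. The reads recovered from the values gave a like picture in the count models. edgeR called 0 members of 0% after adjustment and found 10 members lower at an unadjusted p under 0.05, against 1.28% of all genes. DESeq2 called 4 genes of the table (0.0251%), none of them a member, and found 6 members lower at an unadjusted p under 0.05, against 1.1%.

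These counts rested in part on single libraries. The number of members lower at an unadjusted p under 0.05 was 2 without WT mouse 1, 5 without ED mouse 1 and 7 without ED mouse 2. The shares of all genes lower in those fits were 0.727%, 0.997% and 0.934%. The number of members higher was 2 without WT mouse 1, 1 without WT mouse 2 and 4 without ED mouse 3. Over all 15954 genes those fits called 252, 317 and 379, of which 116, 220 and 280 were lower and the rest higher. Members at a low level differed more than those at a high level. Of the 9 members with a mean of 500 or more, 4 were lower in ED and the median log2 fold change was 0.02, and of the 91 below 500, 68 were lower, their median being -0.22. Among all 8639 genes below 500, 48.2% were lower and the median was 0.01.

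The neuronal channels, 40 of the 100 members, made up 8 of the 11 that were lower at an unadjusted p under 0.05. They also made up 14 of the 20 with every ED library below every WT library. Within the list these were 20% and 35%, against 1.22% and 3.42% of all genes. All 40 had means under 500, and among all genes under that level the shares were 1.95% and 4.94%. Of the 40 measured, 35 had a lower mean in ED, against 51.4% of all genes. That share is the background for each later count of genes with a lower mean. Every ED library was above for 1 of the 40 (Kcnh7), against 2.32% of all genes. Their median log2 fold change was -0.38. The 6 glial and vascular channels were split evenly, with 3 lower and a median of 0.03, and of the 49 members in no list 30 were lower, with a median of -0.10. No member of any list passed after adjustment over all genes.

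Inward rectifiers of neurons were among the lowest in ED. Kcnj3, a pore subunit of the G protein-gated potassium channel through which many transmitters quiet neurons, was at 44.1, 36.2 and 31.8 in WT and 13.1, 21 and 21 in ED. All ED libraries were lower, and the log2 fold change was -1.003 (SE 0.29, interval -1.66 to -0.34, unadjusted p = 0.0072, limma adjusted p = 1.00). Kcnj4, a strong inward rectifier of forebrain neurons, was at 34.4, 14.7 and 19.7 in WT and 9.37, 11 and 11.9 in ED. The groups did not overlap either (log2 fold change of -0.95 with SE 0.37, unadjusted p = 0.031, limma adjusted p = 1.00), though WT mouse 1 stood well above the other WT mice. Kcnj9 and Kcnj6, further subunits of G protein-gated channels, had log2 fold changes of -0.11 and -0.21 with overlapping groups.

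The astrocyte inward rectifier Kcnj10, which takes up potassium released by neurons, was at 759, 536 and 730 in WT and 593, 599 and 699 in ED, and its groups overlapped (log2 fold change of -0.09 with SE 0.14). Kcnj16, which pairs with it, was at 80.7, 81.3 and 81.0 in WT and 75, 113 and 86.6 in ED. Kcnj8, the pore of a metabolically gated channel of pericytes, was near the lowest level of the table, at 12.9, 11.7 and 4.38 in WT and 15.9, 12 and 11.9 in ED. Neither had groups that stood apart. Over all 10 inward rectifiers the median log2 fold change was -0.15, with 7 lower.

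Several voltage-gated potassium channels of neurons had lower means in ED. Kcnc1, a channel of fast-spiking neurons, was at 115, 105 and 116 in WT and 56.2, 79.1 and 102 in ED, with no overlap (log2 fold change of -0.53 with SE 0.22, unadjusted p = 0.040, limma adjusted p = 1.00). Kcnc2, from the same family, was at 88.2, 48.0 and 67.9 in WT and 43.1, 46.1 and 45.6 in ED, without overlap and with a log2 fold change of -0.55 (SE 0.25). Kcnc4, a further gene of this kind, had -0.30 with overlapping groups.

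Kcnq3, a subunit of the slow M-type channel that restrains repeated firing, was at 85, 77.3 and 76.6 in WT and 41.2, 59.1 and 68.4 in ED. The groups did not overlap, with a log2 fold change of -0.52 (SE 0.23, unadjusted p = 0.044, limma adjusted p = 1.00). Kcnf1 and Kcng4 encode silent subunits that form channels only together with other alpha subunits, and both were lower in each ED library than in any WT library. Their log2 fold changes were -0.51 (SE 0.27) and -0.73 (SE 0.34). Kcna2, a channel of axons, also had groups apart, by a small margin, with 205, 167 and 165 in WT and 164, 156 and 160 in ED.

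Not all genes of this type were lower. Kcnd1, at 2739, 2614 and 2905 in WT and 2502, 2639.7 and 2958 in ED, overlapped (log2 fold change of -0.03 with SE 0.09, interval -0.23 to 0.17). Kcnh7, a slow channel of the ether-a-go-go family, was at 32.3, 32.3 and 33.9 in WT and 42.2, 46.1 and 41.9 in ED, with every ED library higher and a log2 fold change of 0.39 (SE 0.22). Its exons overlap those of Gca on the opposite strand, and the sources used here do not state a strand setting for counting, so reads of these neighbours cannot be told apart. Of 30 voltage-gated potassium alpha subunits, 24 were lower and the median log2 fold change was -0.24.

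**Figure D3:**
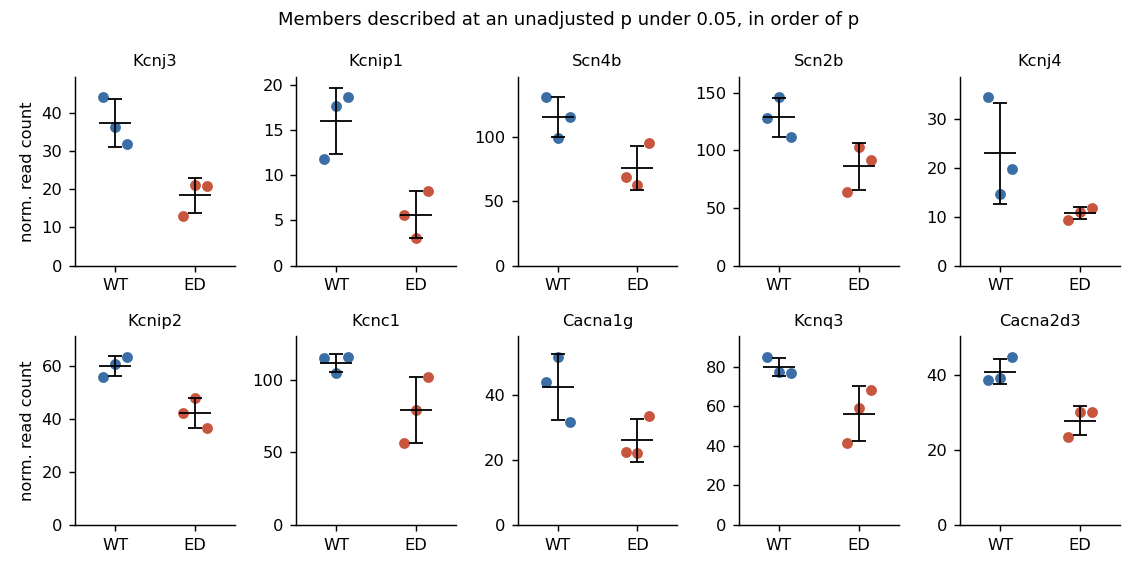
Normalized read counts in each of the 6 libraries for channel genes described in the text at an unadjusted p under 0.05, all of which were lower in ED, with a point per mouse, a bar at the mean with its SD, and each vertical axis starting at 0. In Kcnj3 the 3 ED points lie between 13.1 and 21 and the 3 WT points between 31.8 and 44.1, whereas in Cacna1g ED mouse 3, at 33.7, lies among the WT points.

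Auxiliary subunits of potassium channels were lower on the log2 scale in 9 of 10 cases, against 51.4% of all genes, with a median log2 fold change of -0.41. Among the 9 was Kcnab3, whose log2 fold change was only -0.00049. Its plain mean was 76.8 in WT and 78.1 in ED. Kcnip1, a calcium-binding partner of Kcnd channels known from interneurons, was at 11.8, 17.6 and 18.6 in WT and 5.62, 3.01 and 8.20 in ED. Every ED library was lower, and the log2 fold change of -1.42 (SE 0.43, interval -2.39 to -0.45, unadjusted p = 0.0089, limma adjusted p = 1.00) was the most negative of all members, at a mean that ranked 15785 of 15954 genes. Its relative Kcnip2 was at 55.9, 60.7 and 63.5 in WT and 42.2, 48.1 and 36.5 in ED, again with no overlap (log2 fold change of -0.50 with SE 0.21, unadjusted p = 0.038, limma adjusted p = 1.00). Kcnip3, another relative that also represses transcription and binds presenilins, was far more abundant and not lower, at 791, 956 and 681 in WT and 880, 915 and 854 in ED (log2 fold change of 0.14 with SE 0.12).

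The beta subunits Kcnab1 and Kcnab2 both had groups apart. Kcnab1 was at 74.2, 67.6 and 55.8 in WT and 45.0, 47.1 and 52.9 in ED (log2 fold change of -0.43 with SE 0.21), and Kcnab2, which was the more abundant of them per kb, was at 486, 465 and 474 in WT and 408, 437 and 465 in ED (log2 fold change of -0.12 with SE 0.10). For Kcnab2 the margin between the groups was less than 1 normalized read. Kcne2, a single-pass subunit known from choroid plexus, was at 76.4, 145 and 123 in WT and 157, 72.1 and 46.5 in ED. The summed choroid plexus markers were at 15024, 36466 and 29675 in WT and 42931, 17407 and 13012 in ED, so that Kcne2 and these markers were highest in the same 3 libraries, ED mouse 1 and WT mice 2 and 3. The part of choroid plexus RNA in the level of Kcne2 was not tested.

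Sodium channel beta subunits known from neurons had lower means in ED. Scn2b, which is linked to alpha subunits by a disulfide bond, was at 128, 146 and 112 in WT and 63.7, 103 and 91.2 in ED, without overlap (log2 fold change of -0.59 with SE 0.21, unadjusted p = 0.020, limma adjusted p = 1.00). Scn4b, known for the resurgent sodium current of Purkinje cells, was at 131, 99.9 and 116 in WT and 69.3, 63.1 and 95.7 in ED. It also did not overlap (log2 fold change of -0.61 with SE 0.21, unadjusted p = 0.015, limma adjusted p = 1.00). A further one, Scn3b, had a log2 fold change of -0.38 with overlapping groups.

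Among sodium channel alpha subunits the sign followed the tissue in which each gene is best known. The 4 subunits of central neurons were lower, with log2 fold changes of -0.50 for Scn8a, -0.53 for Scn2a, -0.51 for Scn1a and -0.39 for Scn3a, and none reached an unadjusted p under 0.05. Scn8a was at 218, 153 and 194 in WT and 107, 113 and 189 in ED, and Scn2a at 95.7, 76.4 and 93.1 in WT and 42.2, 78.1 and 67.5 in ED, so that in each gene 1 ED library lay within the WT range. The 4 others were higher. These are Scn9a, Scn10a and Scn11a, best known from sensory neurons of the periphery, and Scn7a, a sodium sensor of glia, with log2 fold changes of 0.68, 0.06, 0.53 and 0.33. Scn11a was at 36.6, 37.2 and 26.3 in WT and 50.6, 54.1 and 40.1 in ED, and its groups did not overlap (SE 0.25, unadjusted p = 0.062, limma adjusted p = 1.00). Scn7a was at 37.7, 32.3 and 23 in WT and 41.2, 44.1 and 31.0 in ED, with overlap. Split in this way after the values were seen, these 8 genes are a description only.

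Calcium channel genes showed the same contrast between abundant and scarce genes. Cacna1d, the pore of an L-type channel and the most abundant of them, was at 1650.2, 1002 and 1156 in WT and 1363, 1533 and 1259.8 in ED (log2 fold change of 0.15 with SE 0.17). Its exons overlap those of Chdh on the opposite strand. Cacna1a, the pore of the P/Q-type channel of nerve endings, was at 418, 415 and 519 in WT and 357, 462 and 497 in ED (log2 fold change of -0.05 with SE 0.15). Neither had groups apart.

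The low-threshold T-type channel gene Cacna1g was at 44.1, 51.9 and 31.8 in WT and 22.5, 22 and 33.7 in ED, with ED mouse 3 inside the WT range (log2 fold change of -0.69 with SE 0.29, unadjusted p = 0.041, limma adjusted p = 1.00). Cacna2d3, an alpha2delta subunit that carries channels to the synapse, was at 38.7, 39.2 and 44.9 in WT and 23.4, 30.1 and 30.1 in ED, without overlap (log2 fold change of -0.54 with SE 0.24, unadjusted p = 0.047, limma adjusted p = 1.00). Cacna1b, Cacna1e and Cacna1i, the pores of N-, R- and T-type channels, also had every ED library below every WT library, with log2 fold changes of -0.55, -0.46 and -0.64. The other alpha2delta genes, Cacna2d1 and Cacna2d2, had -0.27 and 0.09 with overlapping groups.

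The gamma subunits, several of which carry AMPA-type glutamate receptors to synapses, were lower in 5 of 5 cases, against 51.4% of all genes. Their median was -0.31 on the log2 scale. Cacng2, the gene mutated in the stargazer mouse, was at 40.9, 48.0 and 38.3 in WT and 22.5, 26.0 and 36.5 in ED, with no overlap (log2 fold change of -0.59 with SE 0.26). Cacng7 and Cacng8, the most abundant of the 5, overlapped and had -0.22 and -0.31, and Cacng4, known from oligodendrocyte precursors and astrocytes, had -0.38. The intracellular beta subunits were split, with 2 of 4 lower and a median of -0.04. The leading ones were Cacnb2, at 414, 361 and 360.2 in WT and 338, 329.6 and 395 in ED, and Cacnb1, with a log2 fold change of 0.08.

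Of the 6 calcium- and sodium-activated potassium channels, 5 had a higher mean in ED, the exception being the microglial Kcnn4. The median log2 fold change was 0.15, and none of the 6 reached an unadjusted p under 0.05. Kcnn1, a small-conductance channel that follows bursts of firing, was at 31.2, 32.3 and 26.3 in WT and 40.3, 40.1 and 35.6 in ED, with every ED library higher (log2 fold change of 0.36 with SE 0.23, unadjusted p = 0.15, limma adjusted p = 1.00). Kcnma1, the large-conductance channel, was at 436, 273 and 296 in WT and 305, 349.6 and 360.1 in ED and overlapped. Hcn2 and Hcn3, which carry the pacemaker current, overlapped too, with log2 fold changes of 0.12 and -0.18. Kcnq1ot1, a noncoding RNA from the opposite strand of Kcnq1 that matches the name rule without encoding a channel, was at 249.6, 128 and 159.9 in WT and 262, 284 and 171 in ED.

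**Figure D4:**
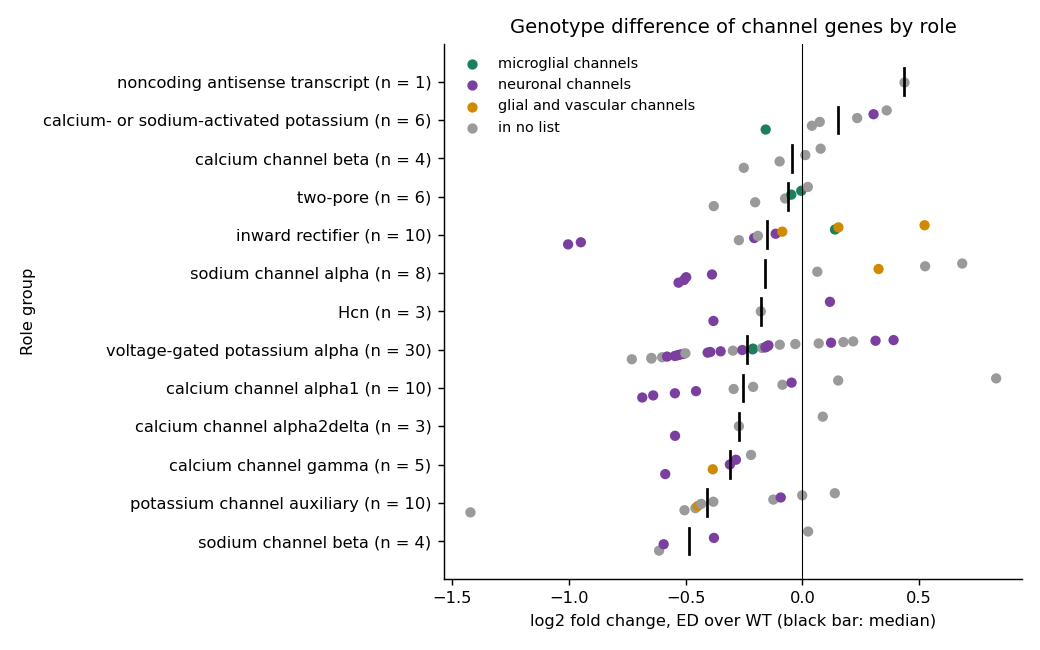
Log2 fold change, ED over WT, of each of the 100 genes in 13 role groups, with a black bar at the median of each group and colours for the channel lists. The medians run from -0.49 for sodium channel beta subunits to 0.15 for calcium- or sodium-activated potassium channels and 0.44 for the single noncoding transcript, and most neuronal channels lie left of 0.

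The neuronal channels moved from library to library together with neuron markers. The mean log2(value + 1) of the 40 neuronal channels was 5.97, 5.75 and 5.82 for WT mice and 5.22, 5.59 and 5.71 for ED mice. That of the 20 neuron markers was 8.25, 8.18 and 8.23 in WT and 7.64, 7.96 and 8.03 in ED. Both sets were lowest in ED mouse 1, where 27 of the 40 neuronal channels had their lowest value. The level of neuronal channels minus that of neuron markers averaged -2.38 ± 0.08 over WT mice and -2.37 ± 0.05 over ED mice (SD, n = 3 each), a difference of 0.01. That difference was smaller than the SD between mice of either genotype. Without ED mouse 1, 29 of 40 neuronal channels were lower and their median log2 fold change was -0.26.

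Neuron markers themselves were lower in ED for 18 of 20 genes, against 51.4% of all genes, the median log2 fold change being -0.34. At an unadjusted p under 0.05, 11 of the 20 were lower, against 1.22% of all genes. By contrast, the mean level of the microglial channels was 9.65, 9.39 and 9.61 in WT and 9.48, 9.43 and 9.58 in ED, and 10 of 12 microglia markers were lower by little, with a median of -0.04. Endothelial and mural markers had lower means in ED in 8 of 9 and 6 of 7 cases, with median log2 fold changes of -0.42 and -0.49, but this rested on WT mouse 2. The mean log2(value + 1) of the endothelial markers was 8.28, 9.34 and 8.08 over WT mice and 8.36, 8.09 and 8.02 over ED mice, and ED minus WT went from -0.41 to -0.02 without WT mouse 2. For mural markers it went from -0.44 to -0.07. Genes of the response to tissue dissociation had lower means in 10 of 10 cases (median -0.31), with a mean log2(value + 1) of 14.1, 14.4 and 13.8 over WT mice and 13.3, 14.1 and 14.0 over ED mice. Here ED mouse 1, also the lowest library for neuronal channels and neuron markers, stood lowest, and ED minus WT went from -0.31 to -0.08 without it. These values without single libraries were added after the data were seen. The part of neuronal RNA in the lower levels of neuronal channels was not tested.

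**Figure D5:**
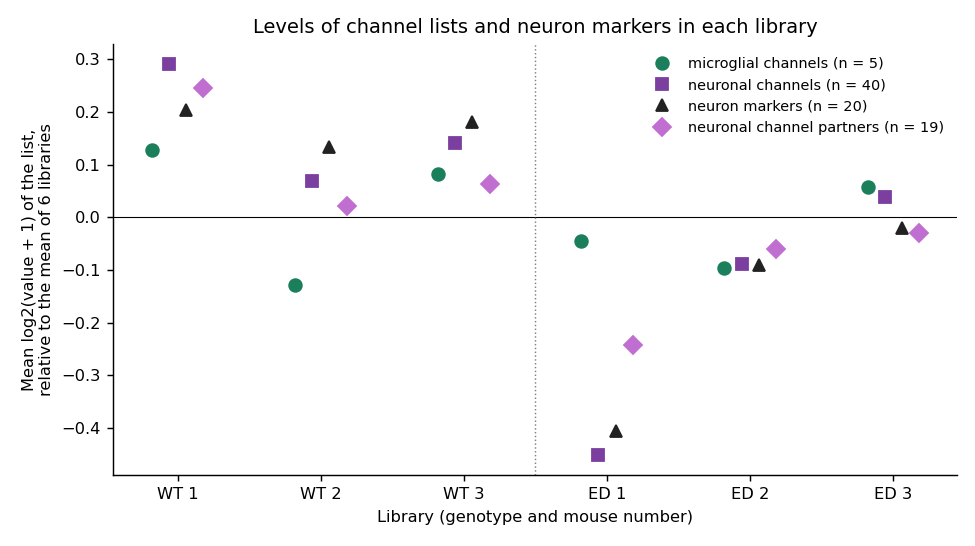
Mean log2(value + 1) of microglial channels (5 genes), neuronal channels (40), neuron markers (20) and neuronal channel partners (19) in each library, relative to the mean of the 6 libraries for that list. Neuronal channels and neuron markers are both lowest in ED mouse 1 (5.22 and 7.64 before centring) and above 0 in the 3 WT libraries, while microglial channels lie on both sides of 0 in each genotype.

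Genes outside the name rule that work with the same channels gave a like split. Of 19 measured partners of neuronal channels, such as the anchoring protein Ank2 and the fibroblast growth factor homologue Fgf13, 17 had a lower mean in ED. The share over all genes was 51.4%, and the median log2 fold change of the partners was -0.20. Dpp6, which speeds Kcnd channels and brings them to dendrites, was at 175, 165 and 151 in WT and 119.9, 124 and 139 in ED, without overlap (log2 fold change of -0.36 with SE 0.14, unadjusted p = 0.035, limma adjusted p = 1.00), and Unc80, part of the sodium leak channel, had -0.51 with overlap. Of 38 other channels and calcium-handling proteins of microglia, 16 were lower, 0 reached an unadjusted p under 0.05, and the median was 0.02. The most abundant were Tmem63a, a stretch-activated channel, the ATP-gated channel P2rx7 and Clic1, with log2 fold changes of 0.03, 0.04 and -0.02.

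Promoters were compared for one motif of PU.1, the transcription factor that governs myeloid genes, whose recognition core is GAGGAA, and for the GC box GGGCGG, each searched on both strands in the 250 bases before the start site. RefSeq promoters (GRCm38.p6) were matched for 73 of 100 members, among them 4 of the 5 microglial and 26 of the 40 neuronal channels. The GAGGAA core was found in 3 of 4 microglial and 7 of 26 (26.9%) neuronal promoters, and in 23.1% of all 27025 promoters. GGGCGG was found in 3 of 4 and 10 of 26, and in 32.9% of all. Since the neuronal share of GAGGAA was near that of all promoters and only 4 microglial promoters were read, the counts are a description, and a match is not evidence of binding.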

How the data were processed

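The table deposited by the authors held 1 normalized signal value per gene and library, which are read counts divided by a size factor, together with columns of the authors' own comparison (log2 fold change, p-value and its adjusted form), which were not used. Per the labels, the submitters' processing notes name Trimmomatic 0.36, STAR 2.5.2b, GRCm38, featureCounts of Subread 1.5.2 and DESeq2. Its published methods cite a human build and partly other tools for RNA-seq, with nothing separate for the mouse. Every value was a whole multiple of 1 read (tolerance 0.0001 read). No ED gene stood at 1 read, so there the step came from the spacing of values.

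Values were analysed as log2(value + 1) with limma 3.58.1 in R 4.3.3 (genotype only, mean-variance trend, no further scaling or filter) with Benjamini-Hochberg adjustment over 15954 genes at 0.05. A fold change on this scale understates that of weakly expressed genes. Intervals are 95% from limma. Its p-values set the genotype difference against a variance between mice that is drawn toward a trend over all genes, with 3 mice per genotype. Alternatives were edgeR 4.0.16 and DESeq2 1.42.0 on the recovered reads, another scaling, pseudocount, filter, trend or block, and leaving out each library. The procedure was tested on simulated data. Of the gene identifiers, 15922 matched GENCODE M21, which gave coordinates and exon lengths, and 22 names were restored. The members and lists were chosen with earlier results of these data known. Genes were named if they were microglial, glial or vascular channels, the 2 most abundant of a role group, at an unadjusted p under 0.05, or apart between genotypes, and, of other lists, the 3 most abundant. Other genes were named after their values were seen. A few members are counted but not reported singly here.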

Additional observations from a re-analysis of the deposited data

How the results depend on the processing

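No member passed after adjustment under any of the alternatives run. The median log2 fold change of the neuronal channels stayed negative throughout and lay between -0.55 and -0.26 with each library left out. The number of members lower at an unadjusted p under 0.05 was 17 without the mean-variance trend and 6 with DESeq2 on recovered reads. The shares of all genes lower were 1.95% and 1.10%. Without the trend 3 members were higher, and 498 of all 15954 genes were called, of which 311 were lower. With each library left out, the number of members ran from 2 to 16 lower and from 0 to 4 higher. The share of all genes lower ran from 0.727% to 1.94% in these fits. For the 11 lower genes, 0 of 141 refitted values turned. These genes were picked by the main fit of the same libraries, so this count is no independent support. Of 206 gene values 7 turned sign, all in microglial channels near 0. Kcnk6 was at 0.00061 with upper-quartile scaling. With each library left out, Kcnk6 ran from -0.076 to 0.048, Kcnk13 from -0.13 to 0.024 and Kcnj2 from -0.10 to 0.26 (log2 fold change). The causes were not tested. With mouse number as a replicate block, 8 members were lower, against 1.38% of all genes, and 7 of them were among the 11. Mice of the same number had correlations of -0.10, 0.05 and 0.27 over genes, so the numbers were not taken as pairs. Genes under a mean of 9.87 could not be judged.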
